A study of Mus musculus with 27 samples.

Results

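The genes described here are the 10 that encode the central enzymes of bile acid synthesis and conjugation in the liver, Cyp7a1, Cyp8b1, Cyp27a1, Cyp7b1, Slc27a5 and Baat, together with the receptors that restrain the pathway, Nr1h4, Nr0b2, Fgfr4 and Klb. They were chosen by name, by matching the Ensembl identifiers of the deposited count table to these symbols, and all 10 were found among the 55414 genes of the table. Their levels were read in the livers of 27 mice, and all 10 had enough counts to be tested, with a lowest count in any library of 31 for Cyp7b1 and 262 or more for the other genes.

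Hepatocytes dispose of cholesterol by turning it into bile acids. In the classic pathway CYP7A1 adds the first hydroxyl group and sets the pace, and CYP8B1 adds the 12α-hydroxyl group that separates cholic acid from the other primary bile acids. In the alternative pathway CYP27A1 acts first and CYP7B1 second. SLC27A5 then activates the bile acids with coenzyme A and BAAT joins them to taurine or glycine. Bile acids that return to the liver bind the nuclear receptor FXR (Nr1h4), which induces the repressor SHP (Nr0b2), while FGF15 from the ileum reaches the hepatocyte through FGFR4 and its co-receptor β-Klotho (Klb). Both signals lower transcription of Cyp7a1, which also follows a daily rhythm of light and feeding. The hour at which livers were taken is not given in the sources used here.

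All mice were female Balb/c animals 8 weeks old. Fibrosis was induced by intraperitoneal carbon tetrachloride (CCl4), a hepatotoxin that pericentral hepatocytes activate, given over 2 weeks, and mice without fibrosis received its carrier, olive oil. The control mice (n = 4) were given olive oil with phosphate-buffered saline in the tail vein and the carboxymethyl cellulose vehicle by gavage, and the 4MU mice (n = 3) were given olive oil with a daily gavage of 4-methylumbelliferone (4MU, hymecromone), a coumarin that lowers hyaluronan synthesis and is used in patients as a choleretic. The siLuc-LNP and siHAS2-LNP mice (n = 3 each) received olive oil and lipid nanoparticles in the tail vein that carried siRNA to luciferase, which mice lack, or to hyaluronan synthase 2. The fibrotic groups were CCl4 alone (n = 2) and CCl4 with 4MU, with siLuc-LNP or with siHAS2-LNP (n = 4 each), written CCl4+4MU and so on. Treatment with 4MU or siRNA began before the first CCl4 dose, so the fibrotic groups describe mice treated while fibrosis developed. The CCl4 group had no vehicle gavage or vein injection in its labels.

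The libraries held 7044386 to 29425937 counts. CCl4 mouse 2 lay at the end of the range of all libraries. It had the highest scaling factor, 1.323, against 0.8158 in the lowest. Its summed CPM of 6 hepatocyte markers was the lowest (71616, against 126095 in CCl4 mouse 1 and 163809 to 197849 in control). Its sum of 5 cell division markers was the highest (552, against 289 in CCl4 mouse 1 and 6.38 to 10.8 in control). CCl4+siLuc-LNP mouse 4 came nearest in scaling factor (1.199) and cell division markers (460), with 101073 CPM of hepatocyte markers. Has2, the target of the siRNA, had 0 to 2 counts in every library, at or under the floor of 3 counts, so it cannot check the siRNA labels. Since CCl4 mouse 2 lay at the end of the range, calls on the 10 genes that involve the CCl4 group are also given without it. For the related lists, medians and some gene values are given without this mouse, as that fit leaves 1 CCl4 mouse. Fewer list calls in CCl4 against control passed in that fit. The RNA came from whole liver, in which fewer cells of a type and less RNA per cell cannot be told apart.

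The promoters of 6 of the 10 genes were found in RefSeq (GRCm38.p6). Cyp7a1, Cyp7b1, Baat and Slc27a5 were not in that table. The 130 bases before the start site are shown for the 3 of these genes that fell in the mean CCl4 effect described below, 5′ to 3′ on the coding strand. Capitals mark CAAGG, the core of the element bound by LRH-1 (Nr5a2), a receptor that drives Cyp8b1 and Nr0b2, and a D-box, TTATGNAA, bound by the clock output factors DBP, TEF and HLF. The windows lie at chr9:121916306-121916435 on the minus strand, chr1:74713405-74713534 on the plus strand and chr4:133553246-133553375 on the plus strand.
Cyp8b1: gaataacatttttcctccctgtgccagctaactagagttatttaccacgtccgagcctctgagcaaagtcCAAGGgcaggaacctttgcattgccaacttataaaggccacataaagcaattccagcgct
Cyp27a1: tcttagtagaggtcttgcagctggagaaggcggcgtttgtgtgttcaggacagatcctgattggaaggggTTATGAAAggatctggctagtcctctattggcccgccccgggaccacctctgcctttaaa
Nr0b2: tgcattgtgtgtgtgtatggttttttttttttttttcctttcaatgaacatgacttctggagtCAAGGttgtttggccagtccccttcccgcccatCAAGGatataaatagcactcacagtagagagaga

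Motifs were searched on both strands of the 300 bases from 250 before to 50 after the start site. CAAGG began 60 bases before the start of Cyp8b1 and 201, 67 and 34 bases before that of Nr0b2. It was also found 218 and, on the reverse strand, 201 bases before the start of Fgfr4, a gene called in no comparison, and on the reverse strand after the start of Cyp27a1. It is a short motif, was chosen after the sequences were seen, and occurred in 52.1% of all 32851 promoter windows. The D-box began 60 bases before the start of Cyp27a1 and was present in 3.39% of windows. The single site of nuclear receptors, AGGTCA, which 16.3% of windows hold, was found only in Nr1h4 among the 6 genes, 214 bases before the start on the reverse strand. The whole LRH-1 element, TCAAGGNCA, held by 1.62% of windows and overlapping the CAAGG core, was in none of the 6 windows, and neither were 2 copies of AGGTCA spaced by 1 base as a direct repeat (0.0396% of windows) or as an inverted repeat, the form that FXR binds (0.0091%). These matches describe the letters of the windows only.

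In control livers the enzymes of conjugation were the most abundant of the 10 transcripts. On the scale of CPM (counts per 1e6 of the library total after TMM scaling) per kilobase of exon, Slc27a5 stood at 387 ± 45.9 (SD, n = 4), followed by Baat at 122 ± 10.3, Cyp27a1 at 95.0 ± 18.5, Cyp8b1 at 82.2 ± 43.7 and Cyp7a1 at 50.8 ± 34.1. The receptors were lower, with Nr0b2 at 23.4 ± 6.99, Nr1h4 at 21.0 ± 2.89, Fgfr4 at 14.5 ± 1.73 and Klb at 6.46 ± 2.13, and Cyp7b1 was lowest at 2.01 ± 0.579. Slc27a5, Fgfr4, Klb and Cyp7b1 were separated from their neighbours in this order by more than the SDs. From Baat to Nr1h4 the intervals of mean ± SD of each gene and the next overlapped. The exons of Cyp7b1 add up to 11786 bases, against 1950 for Cyp8b1, so the per kilobase level of Cyp7b1 depends on how much of that length its transcripts use.

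**Figure D1:**
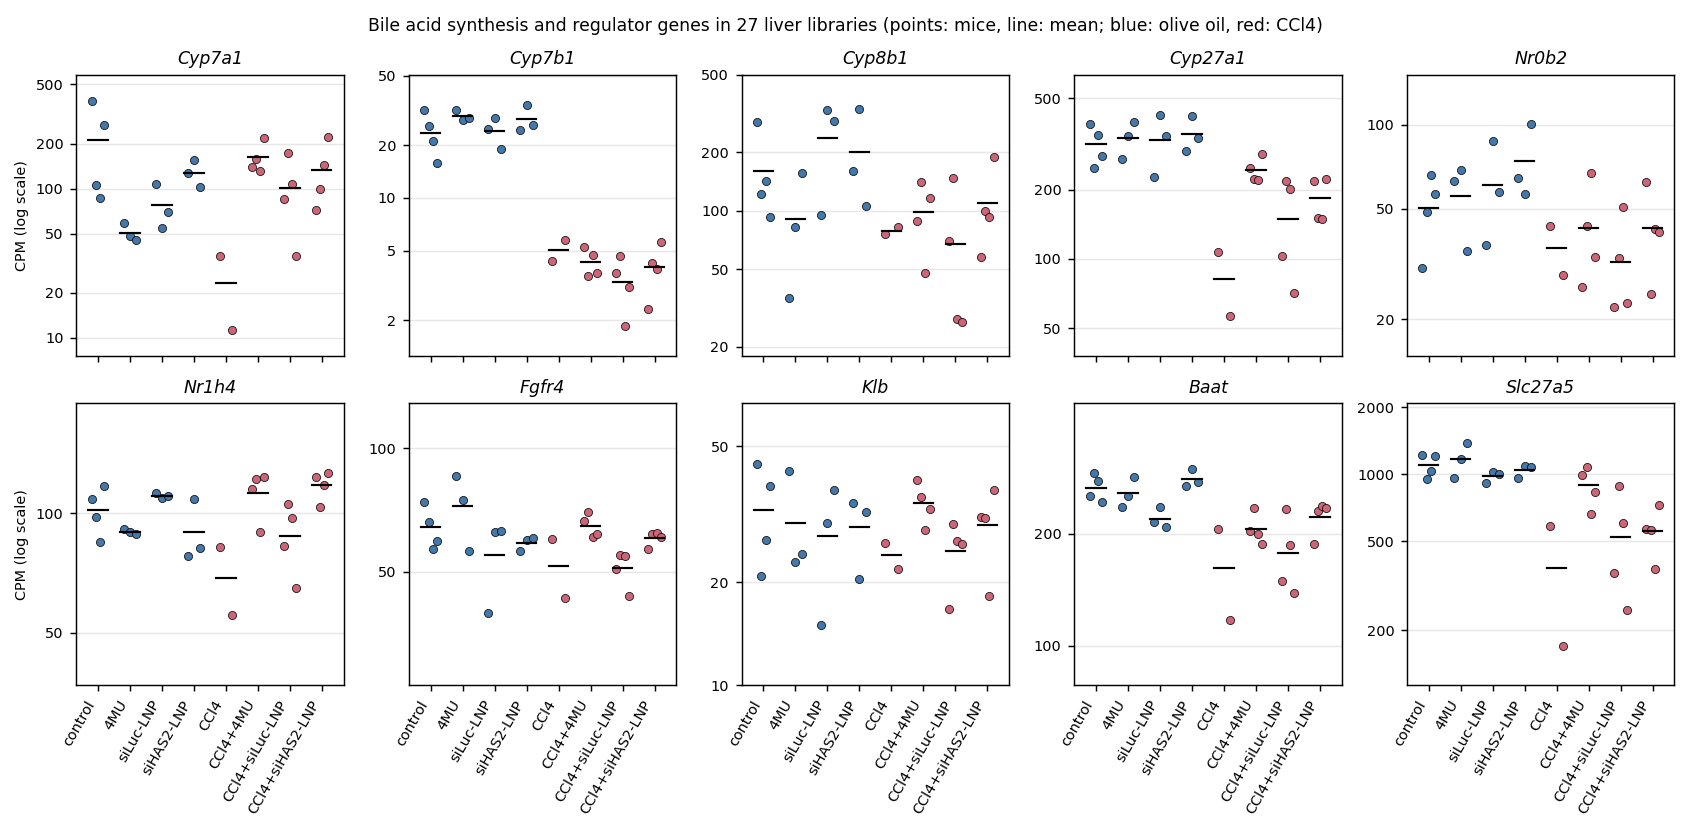
CPM of each of the 10 genes on a log axis in the 8 groups, with a point for each mouse and a line at the group mean, in blue for mice given olive oil and red for mice given CCl4. Cyp7b1 separates all 14 CCl4 mice from the 13 others, whereas the group mean of Cyp7a1 is lowest in mice given CCl4 alone and for Fgfr4 and Klb the CCl4 mice as a whole overlap the mice without CCl4.

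CCl4 lowered most of the enzymes of the pathway. In CCl4 against control livers, Cyp7a1, Cyp7b1, Cyp27a1, Slc27a5, Baat and Nr1h4 fell, and none of the 10 rose, with a median log2 fold change of -0.87 against -0.02 over all tested genes. Of all 14114 tested genes, 16.1% fell and 18% rose in the same comparison. All CCl4 libraries lay below all control libraries for 7 of the 10 genes, against 24.9% of all tested genes. With library totals in place of TMM, or in a fit of the compared groups alone, 4 of the 10 were called. Without CCl4 mouse 2 the values of Slc27a5, Baat and Nr1h4 shrank from -1.54, -0.72 and -0.57 to -0.89, -0.34 and -0.29. With the CCl4 effect averaged over the 4 treatments (none, 4MU, siLuc-LNP, siHAS2-LNP), which uses all 27 livers, 6 genes fell, namely Cyp7b1, Cyp27a1, Slc27a5, Cyp8b1, Nr0b2 and Baat, against 25.6% of all genes that fell and 26.3% that rose. Cyp7a1, Nr1h4, Fgfr4 and Klb did not pass the threshold in that average. Without CCl4 mouse 2 the log2 values of the 6 genes were -2.72, -1.02, -0.77, -0.91, -0.57 and -0.33, in the order given. Adjusted p-values come from the quasi-likelihood test of edgeR, corrected over all tested genes by the Benjamini-Hochberg method, with a threshold of 0.05.

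**Figure D2:**
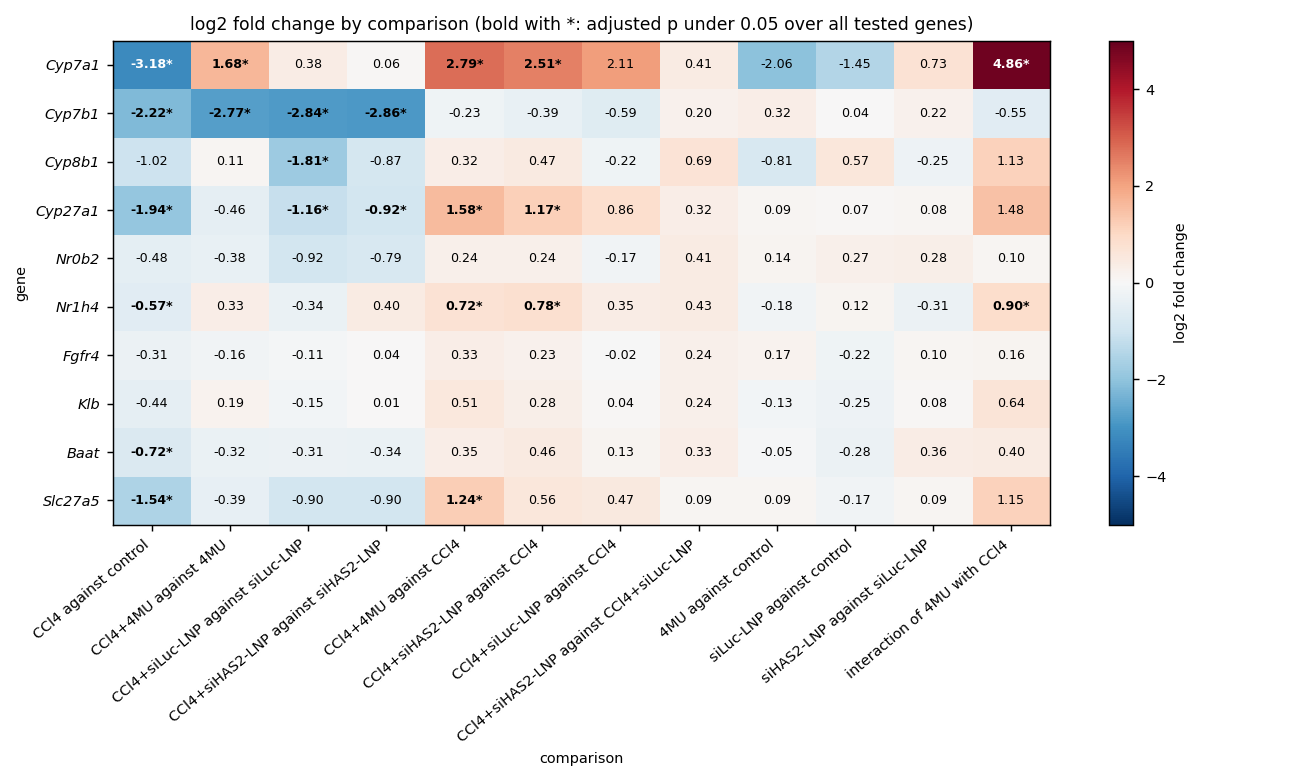
Heat map of the log2 fold changes of the 10 genes (rows) in 12 comparisons (columns), with an asterisk where the adjusted p is under 0.05. The Cyp7b1 row is negative in each CCl4 comparison with the matching group without CCl4, from -2.22 to -2.86, while over the same 4 columns the Cyp7a1 row runs from -3.18 in CCl4 against control to 1.68 in CCl4+4MU against 4MU.

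Cyp7b1 (ENSMUSG00000039519, chromosome 3, 18117411 to 18297740, minus strand, GRCm39), the oxysterol 7α-hydroxylase of the alternative pathway, changed most uniformly. Its level was 31.9, 25.7, 21.2 and 15.8 CPM in the control mice and 4.38 and 5.73 in the CCl4 mice. It was 31.8, 28.0 and 28.6 CPM in 4MU against 5.21, 3.59, 4.73 and 3.70 in CCl4+4MU mice. All 14 CCl4 livers lay below all 13 others, whatever the treatment. The siLuc-LNP mice had 24.8, 28.8 and 19.0 CPM, against 3.72, 4.63, 1.86 and 3.08 with CCl4. The siHAS2-LNP mice had 24.4, 33.9 and 26.1 CPM, against 2.31, 4.25, 3.93 and 5.61 with CCl4. The median without CCl4 was 6.37 times that with CCl4.

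The fall of Cyp7b1 passed the test in each treatment. It was -2.22 on the log2 scale (SE 0.322, adjusted p = 1.13e-05) in CCl4 against control, a 4.66-fold decrease, and -2.41 (adjusted p = 0.000574) without CCl4 mouse 2. It was -2.77 (SE 0.261, adjusted p = 4.81e-08) with 4MU, -2.84 (SE 0.265, adjusted p = 3.2e-08) with siLuc-LNP and -2.86 (SE 0.269, adjusted p = 1.23e-07) with siHAS2-LNP. The mean over the 4 treatments was -2.67 (SE 0.145, adjusted p = 1.29e-13), a 6.38-fold decrease.

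Cyp7a1 (ENSMUSG00000028240, chromosome 4, 6265612 to 6275633, minus strand), the rate-limiting enzyme of the classic pathway, did not move the same way with CCl4 in each treatment. The tests of that difference are given below as interactions. The control mice had 387, 106, 86.6 and 267 CPM and the CCl4 mice 35.6 and 11.3. The 4MU mice had 58.9, 48.2 and 45.1 CPM and the CCl4+4MU mice 140.3, 159, 130.4 and 218. Thus the livers with CCl4 were all below control in the untreated arm and all above the matching livers in the 4MU arm. The CCl4+4MU livers lay within the control range. The 4MU livers lay below it, with an adjusted p of 0.23 in edgeR and 0.0264 in DESeq2 for 4MU against control. The siLuc-LNP mice had 108, 54.3 and 70.1 CPM against 85.5, 174, 108 and 35.2 with CCl4, and the siHAS2-LNP mice 127, 155 and 102 CPM against 71.6, 99.0, 143 and 221 with CCl4. In both particle arms the ranges overlapped.

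Cyp7a1 fell by 3.18 on the log2 scale (SE 0.647, 95% interval -4.45 to -1.91, adjusted p = 0.000546), in CCl4 against control, a 9.07-fold decrease, and without CCl4 mouse 2 the value was -2.55 (adjusted p = 0.0336). With 4MU it rose by 1.68 (SE 0.505, adjusted p = 0.0179), a 3.19-fold increase. That call was lost without 4MU mouse 2 (1.64, adjusted p = 0.0609) or 4MU mouse 3 (1.60, adjusted p = 0.0731). The log2 fold change was 0.38 (adjusted p = 0.608) in CCl4+siLuc-LNP against siLuc-LNP and 0.06 (adjusted p = 0.956) in CCl4+siHAS2-LNP against siHAS2-LNP, and neither passed the threshold. The average over all 4 treatments, -0.27 (adjusted p = 0.385), therefore joins values of opposite sign. An average over the 3 treated arms, added after the data were seen, was higher for Cyp7a1 by 0.70 (adjusted p = 0.047), in a comparison that called 7 of the 10 genes and 41.7% of all genes; this call was lost when any of 14 libraries was left out, at an adjusted p of up to 0.0942.

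**Figure D3:**
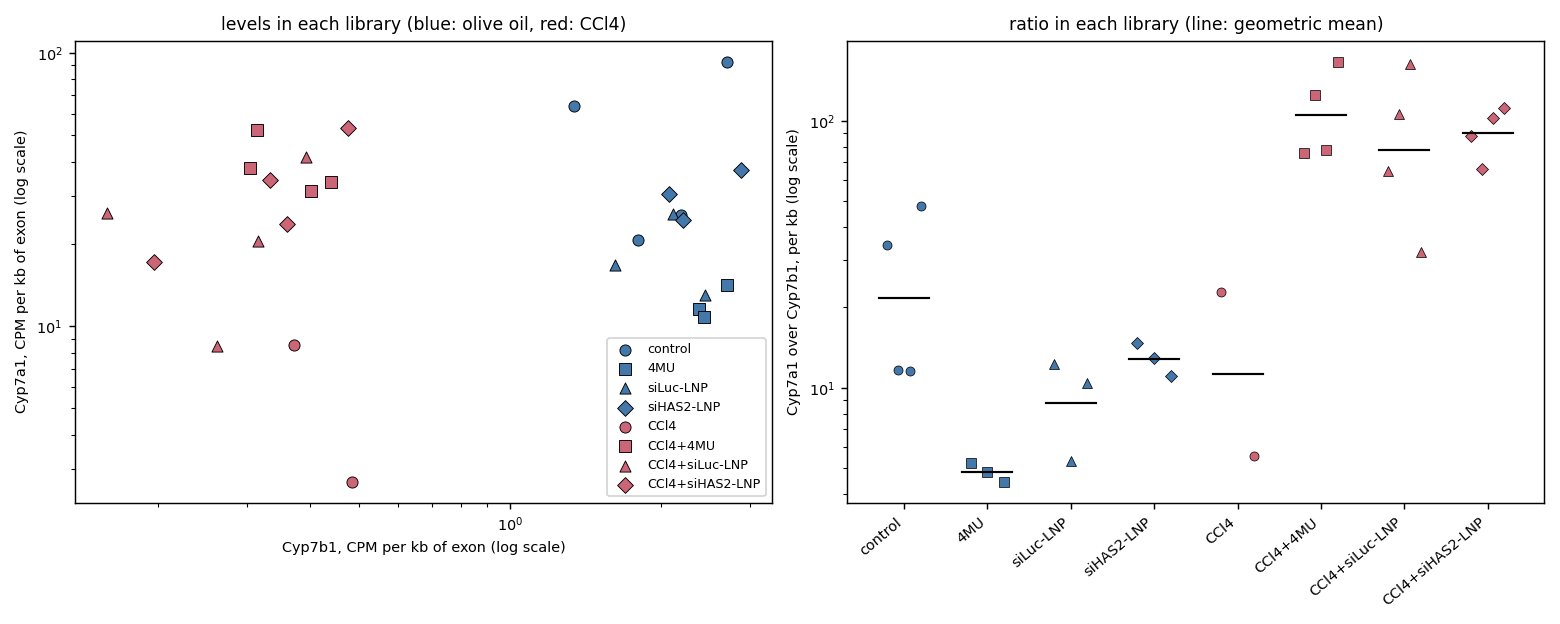
Left, Cyp7a1 against Cyp7b1 in CPM per kilobase on log axes, with a point for each of the 27 livers. Right, the ratio of Cyp7a1 to Cyp7b1 per liver on a log axis with the geometric mean of each group; the treated fibrotic groups lie at geometric means of 77.7 to 105 and the other groups, CCl4 alone included, at 4.84 to 21.7.

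The balance between the 7α-hydroxylases of the classic and the alternative pathway is given as the ratio of Cyp7a1 to Cyp7b1 per kilobase, as a description without a test. Its geometric mean was 21.7 (range 11.5 to 47.8) in control and 11.3 (5.55 to 22.9) in CCl4 livers, and these ranges overlapped. It was 4.84 (4.45 to 5.24) in 4MU, 8.78 (5.32 to 12.2) in siLuc-LNP and 12.8 (11.0 to 14.7) in siHAS2-LNP livers. It was 105 (76.1 to 167) in CCl4+4MU, 77.7 (32.3 to 164) in CCl4+siLuc-LNP and 90.1 (65.8 to 111) in CCl4+siHAS2-LNP livers. Each of the 12 treated fibrotic livers had a ratio above all livers of its own treatment without CCl4. The CCl4 livers were low in both transcripts, at up to 35.6 CPM of Cyp7a1, whereas the treated fibrotic livers were low in Cyp7b1 with 35.2 to 221 CPM of Cyp7a1.

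Cyp27a1 (ENSMUSG00000026170, chromosome 1, 74752314 to 74777056, plus strand), the mitochondrial sterol 27-hydroxylase, was lower with CCl4 in 3 of the 4 arms. The control mice had 385, 249, 346 and 282 CPM and the CCl4 mice 108 and 56.4. Without CCl4 the levels of the other arms were 273, 341 and 396 CPM with 4MU, 226, 424 and 342 with siLuc-LNP and 294, 419 and 337 with siHAS2-LNP. With CCl4 they were 249, 223, 220.4 and 285 CPM, 102, 219, 202 and 71.2, and 219, 150.4, 149 and 222 in the same order of treatments. The 2 CCl4 mice and CCl4+siLuc-LNP mice 1 and 4 were the lowest, and the 4MU arm was the only arm whose ranges with and without CCl4 overlapped.

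Cyp27a1 fell by 1.94 on the log2 scale (SE 0.376, adjusted p = 0.000319) in CCl4 against control, and the value without CCl4 mouse 2 was -1.53 (adjusted p = 0.0294). It fell by 1.16 (SE 0.299, adjusted p = 0.00621) with siLuc-LNP and by 0.92 (SE 0.298, adjusted p = 0.0425) with siHAS2-LNP. The siLuc-LNP call was lost in a fit of the compared groups alone (adjusted p = 0.0822), and the siHAS2-LNP call with library totals in place of TMM (0.0524) and without siHAS2-LNP mouse 1, 2 or 3 or CCl4+siHAS2-LNP mouse 2 or 3, at an adjusted p of up to 0.163. The value in the 4MU arm was -0.46 (adjusted p = 0.277). Its mean CCl4 effect was -1.12 (SE 0.158, adjusted p = 2.36e-06), a 2.17-fold decrease.

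Fewer of the 10 genes were called in each treated arm than in CCl4 against control. With 4MU, 1 gene (Cyp7a1) rose and 1 (Cyp7b1) fell, against 13.2% of all genes that rose and 10.5% that fell. In CCl4+siLuc-LNP against siLuc-LNP, Cyp7b1, Cyp27a1 and Cyp8b1 fell and none of the 10 rose, against 11.2% and 13% of all genes. In CCl4+siHAS2-LNP against siHAS2-LNP, Cyp7b1 and Cyp27a1 fell and none of the 10 rose, against 5.09% and 7.74%.

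Cyp8b1 (ENSMUSG00000050445, chromosome 9, 121743422 to 121745371, minus strand), the sterol 12α-hydroxylase whose promoter is printed above, varied widely within groups. The control mice had 285, 122, 141 and 93.2 CPM and the CCl4 mice 75.6 and 82.2. The 4MU mice had 35.5, 82.4 and 156 CPM and the CCl4+4MU mice 88.7, 141, 48.1 and 117. The groups did not overlap in the first pair and overlapped in the second. The siLuc-LNP mice had 94.9, 328 and 289.8 CPM against 69.7, 147, 27.9 and 26.8 with CCl4, and the siHAS2-LNP mice 159.9, 334 and 105 against 58.1, 99.1, 92.8 and 188.

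The log2 fold change of Cyp8b1 in CCl4 against control was -1.02 (SE 0.681, adjusted p = 0.255). It fell by 1.81 (SE 0.575, adjusted p = 0.0234) in CCl4+siLuc-LNP against siLuc-LNP, a call that was lost without siLuc-LNP mouse 2 or 3 or CCl4+siLuc-LNP mouse 3 or 4, at an adjusted p of up to 0.1, or in a fit of the compared groups alone (0.0802). The mean CCl4 effect was -0.90 (SE 0.301, adjusted p = 0.0151), a 1.86-fold decrease. The ratio of Cyp8b1 to Cyp7a1 per kilobase had a geometric mean of 1.78 (range 0.746 to 3.50) in control, 3.27 (1.29 to 7.39) in 4MU, 5.996 (1.89 to 12.9) in siLuc-LNP and 3.02 (2.21 to 4.60) in siHAS2-LNP livers. With CCl4 it was 1.23, 1.30 and 1.75 in the 4MU, siLuc-LNP and siHAS2-LNP arms and 8.43 in CCl4 alone, where CCl4 mouse 1 had 4.55 and mouse 2 had 15.6. The CCl4 range overlapped those of 4MU, siLuc-LNP and siHAS2-LNP livers.

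Slc27a5 (ENSMUSG00000030382, chromosome 7, 12722273 to 12732137, minus strand), the bile acid coenzyme A ligase, had 1216, 955, 1031 and 1210.3 CPM in control and 587 and 170 in CCl4 livers. The 4MU mice had 962, 1167 and 1384 CPM and the CCl4+4MU mice 993, 1078, 665 and 833. The siLuc-LNP mice had 911, 1023 and 1002 CPM and the CCl4+siLuc-LNP mice 362, 883, 604 and 247. In the CCl4 and CCl4+siLuc-LNP groups the mice differed from each other by more than 3 times. The siHAS2-LNP mice had 959, 1087 and 1077 CPM and the CCl4+siHAS2-LNP mice 569, 561, 375 and 727.

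Slc27a5 fell by 1.54 on the log2 scale (SE 0.412, adjusted p = 0.00555) in CCl4 against control, and the value without CCl4 mouse 2 was -0.89 (adjusted p = 0.185). In CCl4+siLuc-LNP against siLuc-LNP the value was -0.90 (adjusted p = 0.0513), and without CCl4+siLuc-LNP mouse 2 it was -1.26 (adjusted p = 0.00682). In the siHAS2-LNP arm the value was -0.90 (adjusted p = 0.0775) and in the 4MU arm -0.39. DESeq2 called Slc27a5 in the siLuc-LNP and siHAS2-LNP arms (adjusted p = 0.0313 and 0.0411), as did limma-voom (0.0322 and 0.0128). EdgeR without the low-count filter also called both, while DESeq2 size factors, filterByExpr and the replicate block left both uncalled. Its mean CCl4 effect was -0.93 (SE 0.177, adjusted p = 0.000105), a 1.91-fold decrease.

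Baat (ENSMUSG00000039653, chromosome 4, 49489289 to 49506563, minus strand), which joins bile acids to their amino acid, changed less. The control mice had 253, 292, 277 and 243 CPM and the CCl4 mice 207 and 117. Over the other arms the levels were 208 to 299 CPM without CCl4 and 139 to 238 with CCl4. It fell by 0.72 on the log2 scale (SE 0.202, adjusted p = 0.00804) in CCl4 against control, and the value without CCl4 mouse 2 was -0.34 (adjusted p = 0.321). Its mean CCl4 effect was -0.42 (SE 0.0897, adjusted p = 0.00036), a 1.34-fold decrease.

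Nr1h4 (ENSMUSG00000047638, chromosome 10, 89289742 to 89369497, minus strand), which encodes FXR, had 109, 97.6, 84.6 and 117 CPM in control and 82.0 and 55.2 in CCl4 livers. With CCl4 and a treatment it had 115, 122, 89.7 and 123 CPM with 4MU, 82.6, 106, 97.4 and 64.8 with siLuc-LNP and 124, 104, 118 and 126 with siHAS2-LNP. The mice without CCl4 in those arms had 91.2, 89.6 and 88.7 CPM, 113, 109 and 110.3, and 78.2, 109 and 81.6, in the same order of treatments. The CCl4 group was thus the lowest, and 5 of the 14 fibrotic livers, all with 4MU or siHAS2-LNP, lay above all 13 livers without CCl4.

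Nr1h4 fell by 0.57 on the log2 scale (SE 0.195, adjusted p = 0.0258) in CCl4 against control, and the call was lost without CCl4 mouse 2 (-0.29, adjusted p = 0.442) or control mouse 4 (-0.49, adjusted p = 0.065). With library totals in place of TMM the value was -0.18 (adjusted p = 0.391), and that of Baat was -0.34 (adjusted p = 0.13). In a fit of the compared groups alone neither passed (adjusted p = 0.0769 and 0.0544), and without the low-count filter Nr1h4 did not (0.0706). The mean log2 TMM scaling factor differed by 0.41 in CCl4 against control, and a higher factor lowers CPM. Against CCl4 it differed by -0.33 in CCl4+4MU, -0.18 in CCl4+siHAS2-LNP and -0.25 in CCl4+siLuc-LNP. The difference was 0.19 in the siHAS2-LNP arm, 0.11 in the siLuc-LNP arm and -0.16 in CCl4+4MU against CCl4+siHAS2-LNP. Averaged over the 4 treatments the CCl4 effect on Nr1h4 was -0.05 (adjusted p = 0.676).

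Nr0b2 (ENSMUSG00000037583, chromosome 4, 133280678 to 133283847, plus strand), which encodes SHP, a transcript induced by FXR, had 30.5, 48.8, 66.0 and 56.2 CPM in control and 43.2 and 28.9 in CCl4 livers, which overlapped. With 4MU it had 62.7, 68.7 and 35.1 CPM without and 26.2, 43.3, 67.3 and 33.5 with CCl4. With siLuc-LNP it had 36.9, 87.8 and 57.6 CPM without and 22.1, 33.2, 50.5 and 23.0 with CCl4. The levels overlapped in each arm. With siHAS2-LNP it had 64.2, 56.4 and 101 CPM without and 62.3, 24.6, 42.3 and 41.3 with CCl4. Nr0b2 passed the threshold of edgeR, with its low-count filter, in no single arm, with log2 fold changes of -0.48, -0.38, -0.92 and -0.79. The siLuc-LNP arm came nearest (adjusted p = 0.0662), at 0.0373 without siLuc-LNP mouse 1 and 0.0207 without CCl4+siLuc-LNP mouse 3. DESeq2 called it there (adjusted p = 0.0493), and limma-voom called it there (adjusted p = 0.0386) and in the siHAS2-LNP arm (-1.04, adjusted p = 0.0237). Without the low-count filter edgeR called it in both, with an adjusted p of 0.00085 and 0.00611. In the average over the 4 treatments it fell by 0.64 (SE 0.19, adjusted p = 0.00651), a 1.56-fold decrease.

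Fgfr4 (ENSMUSG00000005320, chromosome 13, 55300352 to 55316572, plus strand) and Klb (ENSMUSG00000029195, chromosome 5, 65505657 to 65541827, plus strand), the receptor and co-receptor for FGF15, passed the threshold in none of the comparisons. Fgfr4 ranged from 39.7 to 85.7 CPM and Klb from 15.0 to 44.5 over the 27 livers, and for neither gene did any CCl4 liver lie below all livers without CCl4. The mean CCl4 effect was -0.14 for Fgfr4 (95% interval -0.30 to 0.02, adjusted p = 0.169) and -0.10 for Klb (95% interval -0.40 to 0.20, adjusted p = 0.615). Without siLuc-LNP mouse 1, which had the lowest Fgfr4 and Klb levels, the mean effect on Fgfr4 was -0.18 (adjusted p = 0.0408).

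Among fibrotic livers, the treated groups were compared with the same 2 CCl4 livers, so these comparisons share them. In CCl4+4MU against CCl4, Cyp7a1, Cyp27a1, Slc27a5 and Nr1h4 rose and none of the 10 fell, against 8.28% of all genes that rose and 10% that fell. In CCl4+siHAS2-LNP against CCl4, Cyp7a1, Cyp27a1 and Nr1h4 rose and none of the 10 fell, against 7.11% and 7.33%. In CCl4+siLuc-LNP against CCl4, none of the 10 genes and 0.248% of all genes passed the threshold in edgeR. There, 2 of the 10 and 14.2% of all genes had an unadjusted p under 0.05, DESeq2 called 1 and limma-voom 0.

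Cyp7a1 was higher by 2.79 on the log2 scale (SE 0.633, adjusted p = 0.00469) with 4MU, a 6.94-fold increase, and by 2.51 (SE 0.623, adjusted p = 0.00999) with siHAS2-LNP, a 5.71-fold increase. With siLuc-LNP the value was 2.11 (SE 0.609, adjusted p = 0.111), and DESeq2 gave an adjusted p of 0.0251. Without CCl4+siLuc-LNP mouse 4, which had the lowest Cyp7a1 level of its group, edgeR gave 2.39 (adjusted p = 0.0139). The lowest of the 12 treated fibrotic livers, CCl4+siLuc-LNP mouse 4 at 35.2 CPM, lay beside CCl4 mouse 1 at 35.6 CPM, and the other 11 were above both CCl4 mice. Without CCl4 mouse 2 the value was 2.16 (adjusted p = 0.139) with 4MU and 1.88 (adjusted p = 0.222) with siHAS2-LNP, so both calls rest on that liver.

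The other called genes rested on it as well. Cyp27a1 was higher by 1.58 (SE 0.368, adjusted p = 0.00558) with 4MU, or 1.16 (adjusted p = 0.173) without CCl4 mouse 2, and by 1.17 (SE 0.36, adjusted p = 0.0309) with siHAS2-LNP, or 0.75 (adjusted p = 0.417) without it. The siHAS2-LNP call on Cyp27a1 was also lost without CCl4+siHAS2-LNP mouse 1 or 4 (adjusted p = 0.0593 and 0.0647). Nr1h4 was higher by 0.72 (SE 0.196, adjusted p = 0.0142) with 4MU and by 0.78 (SE 0.197, adjusted p = 0.011) with siHAS2-LNP, or 0.43 (adjusted p = 0.331) and 0.49 (adjusted p = 0.30) without CCl4 mouse 2. The 4MU call on Nr1h4 was also lost with library totals in place of TMM (0.40, adjusted p = 0.0785) and in a fit of the compared groups alone (adjusted p = 0.0603). Slc27a5 was higher by 1.24 (SE 0.405, adjusted p = 0.0354) with 4MU, or 0.57 (adjusted p = 0.487) without CCl4 mouse 2, and its call was also lost without CCl4+4MU mouse 1, 2 or 4, at an adjusted p of up to 0.0751, and in a fit of the compared groups alone (0.101). Without CCl4 mouse 1, in turn, Baat was higher by 0.80 with 4MU and by 0.92 with siHAS2-LNP, against 0.35 and 0.46 with all libraries. Slc27a5 was then higher by 1.71 with siHAS2-LNP, against 0.56 with all libraries. Cyp7b1 was at 1.86 to 5.73 CPM in all 14 fibrotic livers and passed the threshold in none of these comparisons.

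Between treated fibrotic groups 2 comparisons were run, and neither called any of the 10 genes. In CCl4+siHAS2-LNP against CCl4+siLuc-LNP, 0 of the 10 passed the threshold in edgeR, DESeq2 and limma-voom, against 1.09% of all genes, and 1 had an unadjusted p under 0.05 (16.6% of all genes), Nr1h4 (0.43 on the log2 scale, adjusted p = 0.156). The difference in Cyp7a1 was 0.41 with a 95% interval that ran up to 1.28, so a difference of more than 2 times could be present. In CCl4+4MU against CCl4+siHAS2-LNP, 0 of the 10 passed in these tools, against 1.22% of all genes, and 1 had an unadjusted p under 0.05 (18.6% of all genes), Slc27a5 (0.68, adjusted p = 0.245). CCl4+4MU was not tested against CCl4+siLuc-LNP. In these groups Cyp27a1 was at 220.4 to 285 against 71.2 to 219 CPM, with the nearest livers almost level. Fgfr4 was at 60.6 to 69.96 against 43.6 to 54.8 CPM. The share of all genes whose libraries are separated in this pair was not counted, so no result is read from these ranges.

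In mice without fibrosis, none of the 10 genes passed the threshold in edgeR. For 4MU against control, 0.00709% of all genes passed and 1 of the 10 had an unadjusted p under 0.05, as did 6.84%. That gene was Cyp7a1, at -2.06 on the log2 scale (SE 0.514, adjusted p = 0.23), or 4.18-fold lower, with 3 4MU livers that all lay below the 4 control livers. DESeq2 gave it an adjusted p of 0.0264 and limma-voom called none. For siLuc-LNP against control, 0.213% of all genes passed, and 1 of the 10 had an unadjusted p under 0.05 (6.8% of all genes), Cyp7a1 (-1.45, SE 0.5, adjusted p = 0.447). For siHAS2-LNP against siLuc-LNP, 0.0425% of all genes passed and none of the 10 had an unadjusted p under 0.05. DESeq2 and limma-voom called none of the 10 in the last 2 comparisons.

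Whether the CCl4 effect differed with treatment was tested as an interaction. With 4MU, the CCl4 effect on Cyp7a1 was more positive by 4.86 on the log2 scale (SE 0.819, 95% interval 3.25 to 6.46, adjusted p = 0.0109), since the gene fell in CCl4 against control and rose in CCl4+4MU against 4MU. The interaction on Nr1h4 was 0.90 (SE 0.257, adjusted p = 0.0423). These were 2 of the 10 genes, against 5.67% of all genes, and 4 of the 10 had an unadjusted p under 0.05, as did 25.5% of all genes. For Cyp27a1, not called, the interaction was 1.48 (adjusted p = 0.0568). DESeq2 (adjusted p = 0.0221) and limma-voom (adjusted p = 0.0288) called Cyp27a1. Library totals in place of TMM and the replicate block did not, and its value without CCl4 mouse 2 was 1.07. Without CCl4 mouse 2 the values were 4.22 (adjusted p = 0.0739) for Cyp7a1 and 0.62 (adjusted p = 0.296) for Nr1h4. The Nr1h4 call was also lost without control mouse 1, 2 or 4, any 4MU mouse or CCl4+4MU mouse 1, 2 or 4, at an adjusted p of up to 0.0809, and with library totals in place of TMM (0.49, adjusted p = 0.122).

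Of the interactions that involve the particles, the one planned, siHAS2-LNP over siLuc-LNP, called 0 of the 10 genes in edgeR, DESeq2 and limma-voom, against 0.0354% of all genes, and 1 had an unadjusted p under 0.05 (11.4% of all genes), Nr1h4 (0.73, adjusted p = 0.229). Interactions of each particle with CCl4 over no particle were added after the data were seen. For siLuc-LNP edgeR called 0 of the 10, against 0.00709% of all genes, with 1 at an unadjusted p under 0.05 (10% of all genes), Cyp7a1 at 3.56 (adjusted p = 0.111), which DESeq2 called and limma-voom did not. Without CCl4+siLuc-LNP mouse 4 this value was 3.84 (adjusted p = 0.0134). For siHAS2-LNP it was 3.24 (SE 0.781, adjusted p = 0.0163) for Cyp7a1 and 0.97 (SE 0.258, adjusted p = 0.0268) for Nr1h4, against 6.4% of all genes. Without CCl4 mouse 2 the siHAS2-LNP values were 2.59 (adjusted p = 0.162) and 0.67 (adjusted p = 0.271), and the Nr1h4 call was also lost without control mouse 4 or siHAS2-LNP mouse 1 or 3, at an adjusted p of up to 0.0709. All these interactions share the control and CCl4 libraries.

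Hepatocyte and zonation markers also differed between the groups. The summed level of 6 hepatocyte markers was 71616 to 126095 CPM in CCl4, 147534 to 175153 in CCl4+4MU, 101073 to 149998 in CCl4+siLuc-LNP and 109052 to 164003 in CCl4+siHAS2-LNP livers, against 163809 to 197849 in control. In CCl4 against control 4 of 6 hepatocyte and 5 of 6 pericentral markers fell. All 5 markers of dividing cells rose, with a median of 5.82 on the log2 scale. Of all genes, 16.1% fell and 18% rose there. With 4MU against CCl4 alone, 4 of 6 hepatocyte and 4 of 6 pericentral markers rose and all 5 of dividing cells fell. Of all genes, 8.28% rose and 10% fell in that comparison. Without CCl4 mouse 2 the median log2 values in CCl4 against control were -0.66 for hepatocyte, -2.70 for pericentral and 5.34 for dividing cell markers. With 4MU against CCl4 they were 0.51, 0.88 and -1.30 in the same order, and Lgr5, a pericentral marker, was at 1.50. The pericentral markers summed to 6307 to 9801 CPM in control, 453 to 794 in CCl4, 1892 to 2776 in CCl4+4MU, 479 to 1940 in CCl4+siLuc-LNP and 1560 to 2550 in CCl4+siHAS2-LNP livers. The lowest library of the CCl4 and CCl4+siLuc-LNP groups in both sums was the mouse that was lowest there in Cyp7a1, Cyp27a1 and Slc27a5, CCl4 mouse 2 and CCl4+siLuc-LNP mouse 4. The CCl4 group has only 2 mice. No such match was possible in CCl4+siHAS2-LNP livers, where Cyp7a1 was lowest in mouse 1 (71.6 CPM). There Cyp27a1 and Slc27a5 were lowest in mouse 3 (149 and 375 CPM). The match in CCl4+4MU livers is not given here. The part of these markers in the changes of the 10 genes was not tested.

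**Figure D4:**
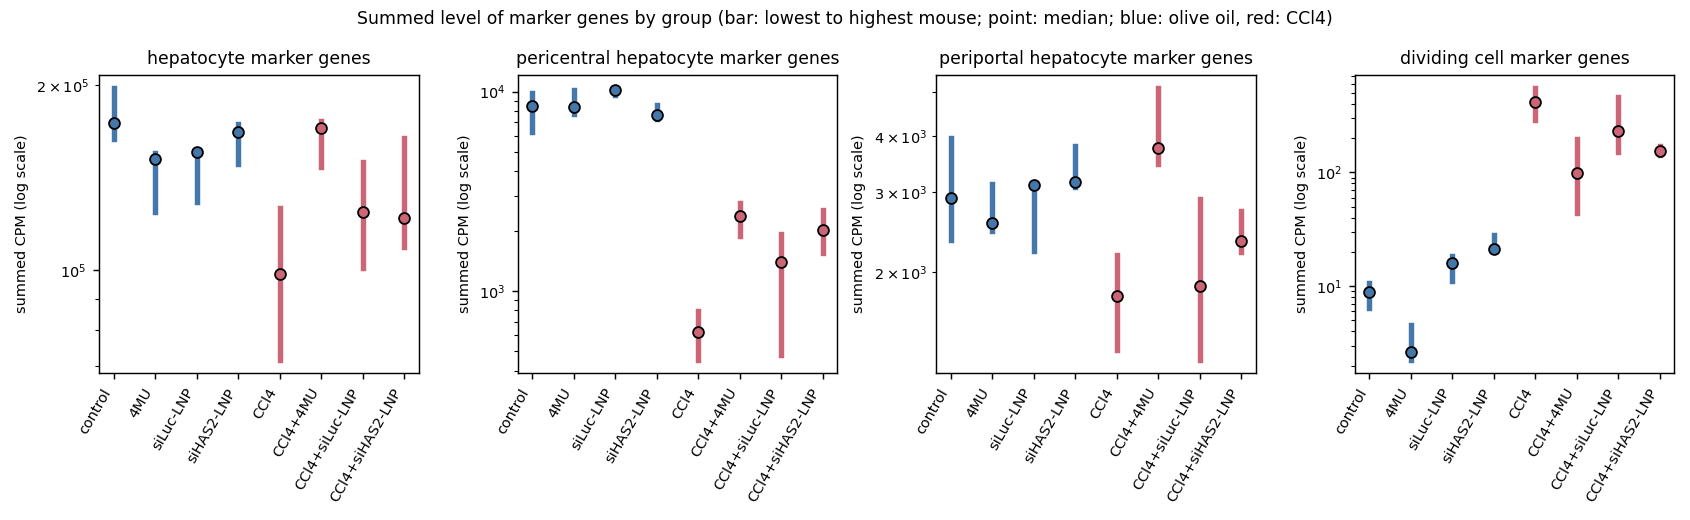
Summed CPM of the markers of hepatocytes, pericentral hepatocytes, periportal hepatocytes and dividing cells in each group, on log axes, with a bar from the lowest to the highest mouse and a point at the median. The pericentral sum is 453 to 794 CPM in the CCl4 group and 6307 to 9801 in control, and the lowest hepatocyte sum, 71616 CPM, is that of a CCl4 mouse.

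Markers of other cell types are set beside all tested genes, of which 18% rose and 16.1% fell in CCl4 against control. In CCl4 against control, 5 of 6 markers of stellate cells and fibroblasts and 2 of 5 of cholangiocytes rose, Col1a1 among the former by 5.49 (adjusted p = 9.37e-08) on the log2 scale. Of the markers of Kupffer cells and macrophages 1 of 6 rose and 1 fell, and of lymphocytes 1 of 5 fell. These counts are near the shares of all genes. Those of sinusoidal endothelium (2 of 5 rose and 1 fell) and of periportal hepatocytes (2 of 6 fell) are little above them. Leaving out CCl4 mouse 2, the median log2 values were 1.67 for stellate, 1.59 for cholangiocyte, -0.37 for Kupffer cell and 0.41 for endothelial markers. They were -0.52 for periportal and -1.19 for lymphocyte markers. The ileal markers Fabp6 and Vil1 were below the filter, with highest counts of 2 and 149, and Slc10a2, which cholangiocytes also express, was tested and not called in this comparison. Fgf15, the ileal hormone that acts on FGFR4, had 0 counts in every liver.

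The rest of the bile acid synthesis route was followed in 14 tested of 16 listed enzymes and sterol carriers. In the mean CCl4 effect 8 of the 14 fell and 2 rose, with a median of -0.26 on the log2 scale. Of all genes, 25.6% fell and 26.3% rose in that effect. Cyp39a1, the oxysterol 7α-hydroxylase that acts on 24-hydroxycholesterol, rose by 1.42 (adjusted p = 2.25e-06), opposite in sign to Cyp7b1, and its level was 13.7 to 27.3 CPM in control, 27.3 to 53.3 in CCl4 and 45.5 to 76.9 in CCl4+4MU livers. Cyp46a1, which makes 24-hydroxycholesterol, fell by 1.25 (adjusted p = 0.00024), and Star, a carrier of cholesterol into mitochondria, fell by 0.94 (adjusted p = 2.69e-05). Control and CCl4 livers differed in 4 of them, namely Cyp46a1 (-2.25, adjusted p = 0.00523), Akr1d1 (-1.13, adjusted p = 0.00514), the reductase that sets the 5β shape of the sterol ring, and Akr1c14 (-0.63, adjusted p = 0.00985) on the falling side and Cyp39a1 (1.08, adjusted p = 0.0484) on the rising side. Between control and CCl4 livers 16.1% of all genes fell and 18% rose, so a count of 4 of the 14 is near the share of all genes. In CCl4+4MU and in CCl4+siHAS2-LNP against CCl4, only Akr1d1 of the 14 was called, higher by 1.07 (adjusted p = 0.0158) and 1.05 (adjusted p = 0.0209). Of all genes, 8.28% and 7.11% rose there, so 1 of 14 is near those shares too. Hsd3b7 and Ch25h, with highest counts of 19 and 17, were not tested. In the annotation nearly all of Hsd3b7 overlaps a readthrough gene on the same strand, Gm49388, with which it can share reads, so its count does not give its level. Without CCl4 mouse 2, a choice made after seeing the data for all lists, the median of the 14 was -0.19 in CCl4 against control. Cyp39a1 was at 1.51 there. The median was 0.09 with 4MU and -0.005 with siHAS2-LNP against CCl4, and -0.19 in the mean CCl4 effect.

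**Figure D5:**
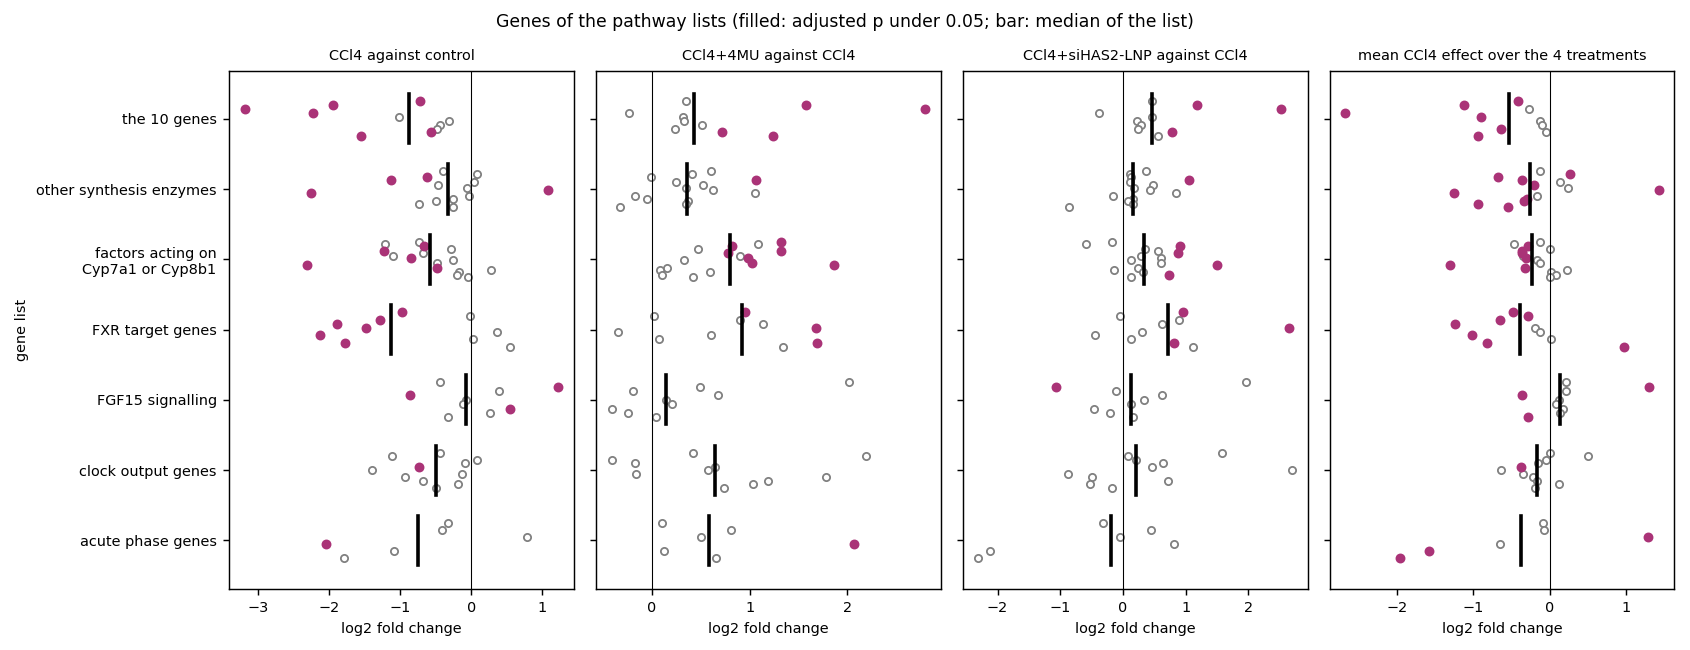
Log2 fold changes of the 10 genes and of the genes of 6 related lists in CCl4 against control, CCl4+4MU against CCl4, CCl4+siHAS2-LNP against CCl4 and the mean CCl4 effect over the 4 treatments, with a point for each gene, filled where the adjusted p is under 0.05, and a bar at the median. The FXR target genes have a median of -1.13 in CCl4 against control and 0.93 in CCl4+4MU against CCl4.

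The transcription factors and cofactors that act on Cyp7a1 or Cyp8b1 were all measured, 16 of 16. With CCl4 5 fell and none rose against control, with a median of -0.58 on the log2 scale. Of all genes, 16.1% fell and 18% rose there. Those with the largest falls were Nr1i3 (CAR, a xenobiotic receptor, -2.31, adjusted p = 0.000217), Klf15 (-1.23, adjusted p = 0.00826) and Nr1h2 (LXRβ, an oxysterol receptor, -0.85, adjusted p = 0.00533). Against CCl4 alone, 7 of the 16 rose with 4MU and none fell, with a median of 0.80, led by Nr1i3 (1.86, adjusted p = 0.00459), Klf15 (1.32, adjusted p = 0.0116) and Cebpb (1.32, adjusted p = 0.0334). In CCl4+siHAS2-LNP against CCl4, 4 rose, Nr1i3 by 1.50 (adjusted p = 0.0181) among them. Of all genes, 8.28% rose with 4MU and 7.11% with siHAS2-LNP against CCl4. Nr1i3 was at 33.6 to 63.4 CPM in control, 8.10 to 12.3 in CCl4 and 22.2 to 52.9 in CCl4+4MU livers. In the mean CCl4 effect 6 fell and none rose, against 25.6% and 26.3% of all genes. Named for the promoters above and outside the rule for named genes, Nr5a2 (LRH-1) was lower by 0.49 (adjusted p = 0.0245) in CCl4 against control, from 66.3 to 81.4 CPM in control to 47.4 to 53.4 in CCl4 livers, while Hnf4a, another activator of Cyp7a1, gave -0.28 (adjusted p = 0.293). With CCl4 mouse 2 left out, 1 of the 16 fell in CCl4 against control, Nr1i3 (-2.01, adjusted p = 0.0189), none passed in CCl4+4MU or CCl4+siHAS2-LNP against CCl4, and 3 fell in the mean CCl4 effect. Nr5a2 was then at -0.38 (adjusted p = 0.247).

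The 10 tested FXR target genes, of 11 listed, include the transporters that move bile acids and sterols across the hepatocyte membrane. With CCl4 6 fell and none rose against control, with a median of -1.13 on the log2 scale. Of all genes, 16.1% fell and 18% rose there. Slc10a1, which takes bile acids up from blood and which FXR represses, fell (adjusted p = 3.56e-05), from 523 to 791 CPM in control to 184 to 225 in CCl4 livers, and stood at 520 to 732 in CCl4+4MU livers (adjusted p = 0.000749 against CCl4). Abcg8, a part of the sterol exporter of bile, fell with an adjusted p of 0.00119, and Pltp, the phospholipid transfer protein, fell by 2.12 (adjusted p = 0.00804). With 4MU against CCl4 alone, 3 rose and none fell, against 8.28% and 10% of all genes. Besides Slc10a1 they were Apoc2 (1.67, adjusted p = 0.0159), an activator of lipoprotein lipase, and Abcb11 (0.95, adjusted p = 0.00734), the bile salt export pump. In CCl4+siHAS2-LNP against CCl4 these 3 genes also rose, Apoc2 by 2.65 (adjusted p = 0.00143), against 7.11% of all genes. In the mean CCl4 effect 6 fell and 1 rose, against 25.6% and 26.3% of all genes. The 1 that rose was Slc51b (0.97, adjusted p = 0.000908), a subunit of the basolateral bile acid exporter, whose partner Slc51a had at most 13 counts. When CCl4 mouse 2 was left out, the median was -0.70 in CCl4 against control, with Slc10a1 at -1.90 and Apoc2 at -2.82. With 4MU against CCl4 the median was 0.67, with Slc10a1 at 1.81 and Apoc2 at 3.01. With siHAS2-LNP it was 0.48, with Apoc2 at 3.98. These values rest on CCl4 mouse 1 alone. Those of Apoc2 were larger in size than with both CCl4 mice (-1.48, 1.67 and 2.65), so the 2 CCl4 mice differed in it.

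Of the partners of FGF15 signalling 9 of 11 were tested. In CCl4 against control Fgfr1 (1.23, adjusted p = 0.00599) and Ptpn11 (0.55, adjusted p = 0.0233) rose and Fgfr3 fell (-0.86, adjusted p = 0.0131), with a median of -0.08 on the log2 scale. Fgfr1 rose by 1.30 (adjusted p = 3.59e-07) in the mean CCl4 effect. Of 11 circadian clock output genes 1 fell in CCl4 against control, Hlf (-0.74, adjusted p = 0.029), with a median of -0.50, and none passed in CCl4+4MU against CCl4, with a median of 0.65. Dbp, an activator of Cyp7a1 with a strong daily rhythm, ranged from 9.52 to 99.1 CPM among the 4 control livers alone. The part of the time of day in the spread of Cyp7a1 was not tested. Of 6 acute phase genes 1 fell in CCl4 against control, Orm2 (-2.05, adjusted p = 0.0274), which rose by 2.07 (adjusted p = 0.0428) in CCl4+4MU against CCl4. In CCl4 against control 16.1% of all genes fell and 18% rose, so the counts of these 3 lists are near or below those shares. Without CCl4 mouse 2 Fgfr1 was at 1.70 in CCl4 against control, where the medians of these 3 lists were -0.15, -0.42 and -0.58. With 4MU against CCl4 the medians were 0.16, 0.41 and 0.58 in the same order.

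Ranks of the 10 genes over the CCl4 livers and over the others were compared in pairs, without a test of the difference. As a description over livers that share library and depth effects and come from 4 treatments each, Spearman's rho over the 14 CCl4 livers and over the 13 others was 0.91 and 0.60 for Cyp27a1 with Slc27a5, 0.81 and -0.22 for Cyp7a1 with Cyp27a1, 0.76 and -0.03 for Cyp7a1 with Slc27a5, and 0.76 and 0.28 for Cyp7a1 with Nr1h4. Cyp8b1 with Cyp27a1 ran the other way, at 0.50 and 0.74, and Cyp7a1 with Nr0b2, the transcript of its repressor, gave 0.20 and -0.39. Over all 27 livers the genes whose levels were ranked most like Cyp7a1 were Fes (rho 0.764), Tmem266 (0.688), Spns2 (0.673), Klhl26 (0.673) and Zer1 (0.655), and those most like Nr0b2 were Dexi (0.803), Pyurf (0.765), Srd5a1 (0.748), Hagh (0.737) and Zdhhc18 (0.735). None of the other 9 genes was among the 5 most like Cyp7a1.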

How the data were processed

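Poly(A) RNA from whole liver was sequenced as paired ends, and the authors deposited raw counts per gene for 27 mice, not normalised or filtered. Per the submitters' processing notes and the methods, reads were trimmed with Trimmomatic 0.39, aligned with HISAT2 to GRCm39 and counted with featureCounts. The HISAT2 version and the strand setting of the counting are not given in the sources used here, so reads of overlapping or antisense genes may be shared. Table columns were matched to mice by their titles, and 0 columns belonged to other samples. Each library is 1 mouse. No pair of the 34 within groups agreed within counting noise (chi-square per degree of freedom 16.1 to 460).

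Symbols, positions and exon lengths were taken from GENCODE vM39 (GRCm39), which matched 54749 of 55414 identifiers. Genes averaging 10 or more counts in a library were tested (14114, of which 14081 had a symbol) with R 4.3.3 and edgeR 4.0.16: TMM scaling, all 8 groups in 1 fit, the quasi-likelihood test, and Benjamini-Hochberg adjustment over all tested genes at 0.05. CPM uses TMM-scaled totals. Total counts of 7044386 to 29425937 per library put a floor of 3 counts at 0.104 to 0.401 CPM, which covers counting error only. SEs and 95% intervals (1.96 SE) come from the same fit. Figures and summaries used Python 3.11.15, numpy 2.4.6, pandas 2.3.3, scipy 1.17.1 and matplotlib 3.10.9. The scripts were tested on simulated data. Likeness is Spearman's rho of log2(CPM + 0.5). Promoters are RefSeq windows of GRCm38.p6, a build used for letters and their own positions only.

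The 10 genes, the 6 pathway lists (71 genes, with markers of 10 kinds of cell beside them) and the comparisons were chosen with earlier results of these data known. The average over the 3 treated arms, the interactions of each particle over no particle, the list values without CCl4 mouse 2 and the CAAGG motif were added after seeing the data. Named genes are the 10 genes, in each pathway list the up to 3 called genes with the largest absolute log2 fold change in a comparison, the markers, and the 5 genes with a symbol (Gm and Rik left out) most like Cyp7a1 and Nr0b2. Alternatives were DESeq2 1.42.0, limma-voom 3.58.1 with quality weights, DESeq2 size factors, library totals without TMM, no low-count filter, filterByExpr, only the compared groups, the replicate number as a block, a log2 fold change of 1 or more in size, and each library left out.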

Additional observations from a re-analysis of the deposited data

Results flagged for a closer look

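The Baat level of CCl4+siHAS2-LNP mouse 1, 188 CPM, lay apart from those of the other 3 mice of its group, 230.2 to 238 CPM. The gap took up 0.848 of the range of the group, above Dixon's critical value for 4 samples. Of 40 groups of 4 mice tested in this way, chance gives such a gap in about 5%.

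The CCl4 effect differed with treatment for 2 of the 10 genes, by the test of the interaction. With 4MU, the effect was more positive by 4.86 on the log2 scale for Cyp7a1 (adjusted p = 0.0109) and by 0.90 for Nr1h4 (adjusted p = 0.0423). With siHAS2-LNP over no particle, an interaction added after the data were seen, it was more positive by 3.24 for Cyp7a1 (adjusted p = 0.0163) and by 0.97 for Nr1h4 (adjusted p = 0.0268). Without CCl4 mouse 2 none of the 4 values passed the threshold in edgeR (4.22, 0.62, 2.59 and 0.67 in the same order, with adjusted p = 0.0739, 0.296, 0.162 and 0.271).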

How the results depend on the processing

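No value of the 10 genes that was called changed sign under any alternative. Of 180 values, 10 genes in 18 comparisons, DESeq2 kept the side of the threshold in 173 and limma-voom in 174, size factors and filterByExpr in all 180, totals without TMM in 171, no filter in 167 and the replicate block in 175; over all single libraries left out it was 1738 of 1820. The number of the 10 genes called moved by over 1.5 times as follows. In CCl4+siLuc-LNP against siLuc-LNP (3 called) DESeq2, limma-voom and no filter gave 5 and only the compared groups 1. In CCl4+siHAS2-LNP against siHAS2-LNP (2) limma-voom and no filter gave 5, and the replicate block and a limit of 1 on the size of the log2 fold change gave 1. That fold limit also gave 2 for the mean CCl4 effect (6), 1 for the 4MU interaction (2), 1 for the siHAS2-LNP interaction over no particle (2), and 1 for the average over 3 arms (7). In CCl4+4MU against CCl4 (4) only the compared groups gave 2. DESeq2 and no filter each gave 1 in CCl4+siLuc-LNP against CCl4, 4MU against control and the siLuc-LNP interaction (0 each), and no filter gave 1 in siLuc-LNP against control (0). The interaction of 4MU gave 1 without TMM, 4 with no filter and 1 with the replicate block. With a library left out the numbers ran from 3 to 6 in CCl4 against control, 1 to 2 in CCl4+4MU against 4MU and in CCl4+siHAS2-LNP against siHAS2-LNP, 0 to 5 in CCl4+4MU and in CCl4+siHAS2-LNP against CCl4, 0 to 2 in CCl4+siLuc-LNP against CCl4, 0 to 4 in the 4MU interaction, 0 to 1 in the siLuc-LNP interaction and 0 to 3 in the siHAS2-LNP interaction over no particle. The lone CCl4 mouse left in such fits is assumed to vary like the other groups. The causes were not tested. Same-numbered mice did not deviate together (correlations -0.32 to 0.293, median -0.0167, 83 pairs; 4 of 27 libraries correlated best with their own number), so the numbers do not pair the mice. The block ended the calls of Cyp27a1 in the siHAS2-LNP arm (adjusted p = 0.0903), Slc27a5 in CCl4+4MU against CCl4 (0.0526), Nr1h4 in the 4MU interaction (0.0625), and Cyp7a1 (0.0821) and Cyp8b1 (0.0644) in the average over 3 arms. A fit with only the compared groups is the full fit for the mean over 4 treatments and was not run there. Depth was least limiting for Slc27a5 and most for Cyp7b1, with 31 counts in its lowest library.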
